A study of Rattus norvegicus with 24 samples.

Results

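Collagens, laminins, fibulins, fibrillins, thrombospondins, Sparc, the matrix metalloproteinases (Mmp), the Adamts proteases and their tissue inhibitors (Timp) were followed in the hippocampus of growth hormone (GH) deficient dwarf rats. The set holds every array probe whose annotated symbol begins with Col, a number and a, with Lama, Lamb, Lamc, Fbln, Fbn, Mmp, Timp, Adamts or Thbs and a number, or is Sparc. Col1a1 and Col1a2 were left out and served as meningeal markers. The rule took 72 of 22226 probes, for 71 genes, since Fbn2 had 2 probes. Whole hippocampi of 24 rats were measured on Illumina bead arrays, with 4 rats in each of 6 groups. At 30 days the groups were dw/dw rats of strain HsdOla:DWARF-dw-4 given 300 µg GH under the skin, dw/dw rats given saline, and HZ rats of the same strain given saline, all 65 days old. At 7 days the same 3 treatments were given, and the rats were 42 days old. Injections began on postnatal day 35. All dw/dw rats, GH treated or not, are homozygous for the dwarf allele dw, the HZ controls are heterozygous, and no group without the allele was analysed here. The 30-day arrays lay on one slide and the 7-day arrays on the other, so age, length of treatment and slide cannot be told apart. The rats of a treatment sat side by side on each slide, at the same positions on the other, so treatment and place on the slide cannot be told apart.

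Collagens form the fibrils and sheets of the extracellular matrix, laminins and type IV collagen build the basement membrane of vessels and meninges, and fibulins and fibrillins join these parts into fibres. Mmp and Adamts enzymes cut matrix proteins, and Timp proteins block them. In brain tissue most fibrillar collagen lies in meninges and vessel walls, while the space around neurons is rich in proteoglycans, which several Adamts enzymes cleave, and proteolysis of matrix at synapses, by Mmp9 among others, has been tied to hippocampal plasticity.

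The arrays detected between 44.9% and 51.2% of probes. Signals were background corrected, quantile normalized and put on a log2 scale, and every level below is such a log2 signal. The dimmest probes lie near 6, where differences are compressed. Levels of different probes are not compared with each other. Of 14 hippocampal neuron markers 12 were measured, and all 12 were detected on all 24 arrays. The labels call the 4 rats of a group replicates and give no litters. In whole tissue, fewer cells of a type and less RNA per cell cannot be told apart.

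Of the 72 probes, 29 were detected (detection p under 0.05) on at least 4 arrays and were tested, which is 40.3%, against 51.7% of all probes on the array. Detection on all 24 arrays was reached by 19 members. The collagens gave 12 tested members of 23 probes, and the 3 Timp genes were all tested. Lamb2 was the 1 tested laminin of 6, and Lama5 and Lamc1 were detected on 0 and 3 arrays. Among 20 Mmp probes only Mmp9, Mmp14, Mmp16, Mmp17 and Mmp28 were tested, and Mmp2, the gelatinase that Mmp14 activates, was detected on 0 arrays with log2 signals of 6.02 to 6.05. The thrombospondin probes Thbs2 and Thbs4 were detected on 0 arrays. Adamts1, Adamts4, Adamts9 and Adamts18 were tested of 12 Adamts probes, and Fbln1, Fbln5 and Fbn1 of 5 fibulin and fibrillin probes. A further 10 probes, those for Lamc1, Adamts2, Adamts5, Mmp13, Mmp23, Col15a1, Col5a3, Col9a2, Lamb3 and 1 of the 2 for Fbn2, were detected on 1 to 3 arrays and were not tested, and 33 were detected on 0 arrays. The 33 were Adamts3, Adamts7, Adamts12, Adamts14, Adamts15, Adamts19, Mmp1, Mmp2, Mmp3, Mmp7, Mmp8, Mmp10, Mmp11, Mmp12, Mmp15, Mmp19, Mmp20, Mmp21, Mmp27, Col2a1, Col4a3, Col4a4, Col4a5, Col6a2, Col6a4, Col13a1, Col17a1, Lama1, Lama5, Lamc3, Thbs2, Thbs4 and the other Fbn2 probe. Probes that were not tested give no comparison between groups here.

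**Figure D1:**
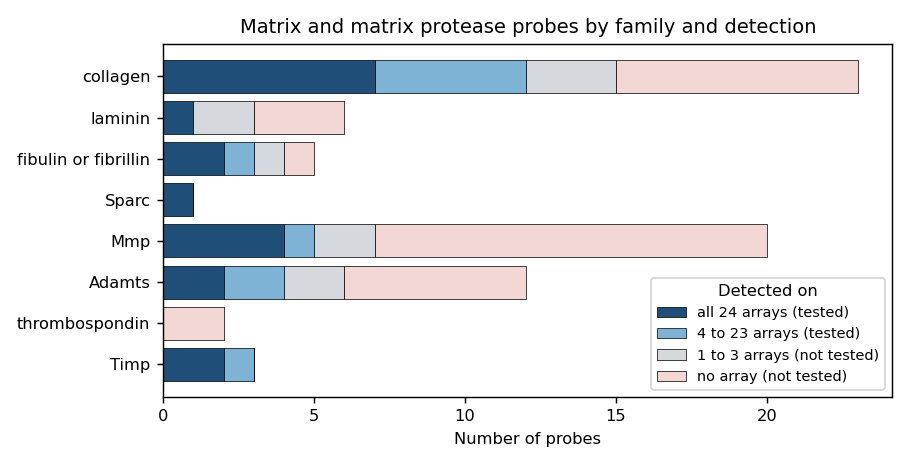
Number of member probes in each gene family (horizontal axis), split by how many of the 24 arrays detected them. The collagens give 12 tested probes of 23, the Mmp genes 5 of 20 and the thrombospondins 0 of 2.

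Between the durations, 5 of the 29 tested members fell and 0 rose at 30 days relative to 7 days, averaged over the 3 treatments (limma, adjusted p under 0.05). They were the proteases Mmp14, Mmp9 and Adamts9 and the collagens Col4a1 and Col6a1. Of all 11487 tested probes, 908 (7.9%) fell and 900 (7.83%) rose. A difference below 0 was found for 25 of the 29 members, against 52.1% of all tested probes. The members' median difference was -0.018, against -0.0014 over all tested probes. By family, all 5 Mmp members, 11 of 12 collagens and 3 of 4 Adamts members were below 0. At an unadjusted p under 0.05 there were 12 lower members, against 15.5% of all probes, and 2 higher ones, against 14.5%. The 12 arrays at 30 days and the 12 at 7 days overlapped in all 29 members, and of all tested probes 0.218% were lower and 0.139% higher without overlap.

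**Figure D2:**
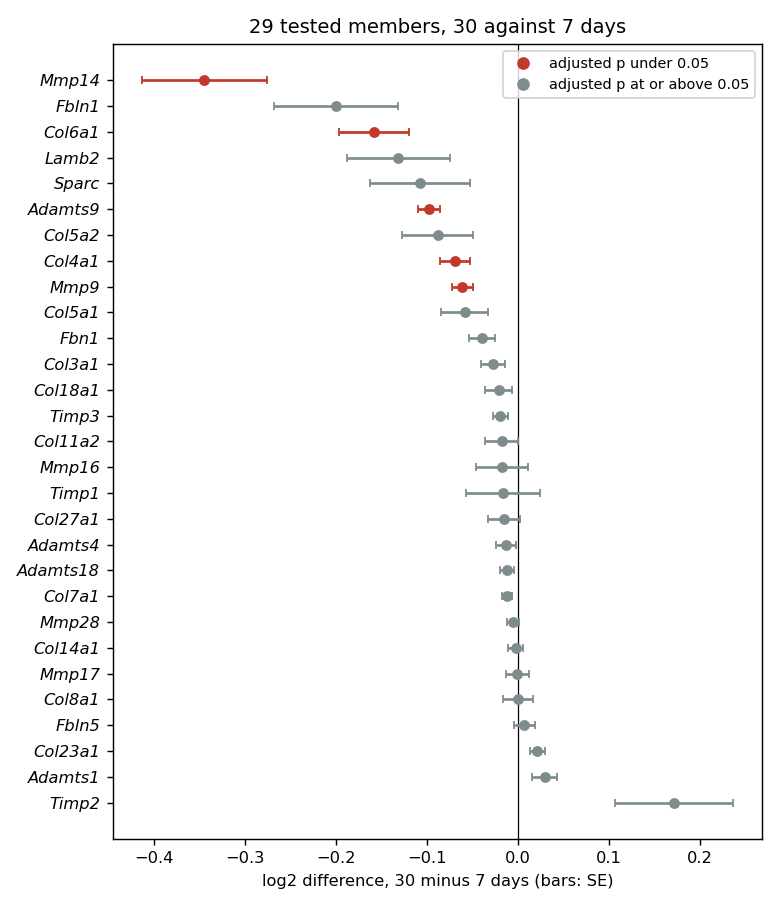
log2 difference (horizontal axis) of the 29 tested members at 30 days minus 7 days, averaged over the 3 treatments. Bars are SE, red points have a limma adjusted p under 0.05, and 25 of the 29 points lie below 0.

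Markers of other cells also differed between the durations. Of 15 measured markers of meninges and fibroblasts, 4 fell and 1 rose at 30 days, with a median difference of -0.042. All 11 measured oligodendrocyte markers were below 0, and 6 of them fell (median -0.23). All 7 mural cell markers were below 0 and 1 fell, while of 6 endothelial markers 2 fell and 1 rose. Red blood cell markers had a median of -1.22, with 3 of 5 lower past the threshold. Astrocyte markers gave 2 that fell of 9, and microglia markers 2 of 11. Of 4 measured choroid plexus markers 1 fell and 0 rose, and of 12 neuronal markers 3 rose and 2 fell. The part of these in the members' differences was not tested, other than for the meningeal markers, whose values follow.

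Across the 10 comparisons of GH treatment and of GH deficiency, 0 of the 29 members and 0 (0%) of the 11487 tested probes passed the adjusted threshold in the limma fit. With an unadjusted p under 0.05, GH against saline in dw/dw rats gave 2 members at 30 days (all probes 3.36%) and 0 at 7 days (4.65%). Saline dw/dw against HZ gave 1 member at 30 days (7.14%) and 2 at 7 days (6.6%). GH-treated dw/dw rats against HZ gave 1 member at 30 days (5.48%) and 1 at 7 days (4.06%). Averaged over durations, GH against saline and saline dw/dw against HZ gave 0 members each (2.92% and 9.78%). The change of the GH difference between durations gave 1 member (5.15%), and the change of the deficiency difference 2 (4%).

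The signs of the members' differences leaned one way in several of these comparisons, by small amounts. GH-treated dw/dw rats had the higher mean than saline dw/dw rats in 19 of 29 members at 30 days (all probes 49.2%), 21 of 29 at 7 days (49.3%) and 24 of 29 averaged over both (49%). The members' median of the averaged difference was 0.010, against -0.00051 for all tested probes. Against HZ rats, GH-treated dw/dw rats were the higher in 25 of 29 members at 30 days (52.6%) and in 15 of 29 at 7 days (50.9%). Saline dw/dw rats were above HZ in 20 of 29 members at 30 days (52.7%) and in only 8 of 29 at 7 days (52.4%). These comparisons share groups, and members that move together within an animal are not separate observations. The groups did not overlap in 1 member of these 6 comparisons within a duration, Mmp14 for GH against saline at 7 days, where 1.45% of all probes were higher without overlap and 1.66% lower. For GH against saline at 30 days 1% of all probes were higher without overlap and 1.32% lower. For GH-treated dw/dw against HZ rats the shares were 1.43% higher and 1.77% lower at 30 days, and 1.46% higher and 0.931% lower at 7 days. For saline dw/dw against HZ rats they were 2.34% higher and 1.99% lower at 30 days, and 1.58% higher and 1.23% lower at 7 days.

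**Figure D3:**
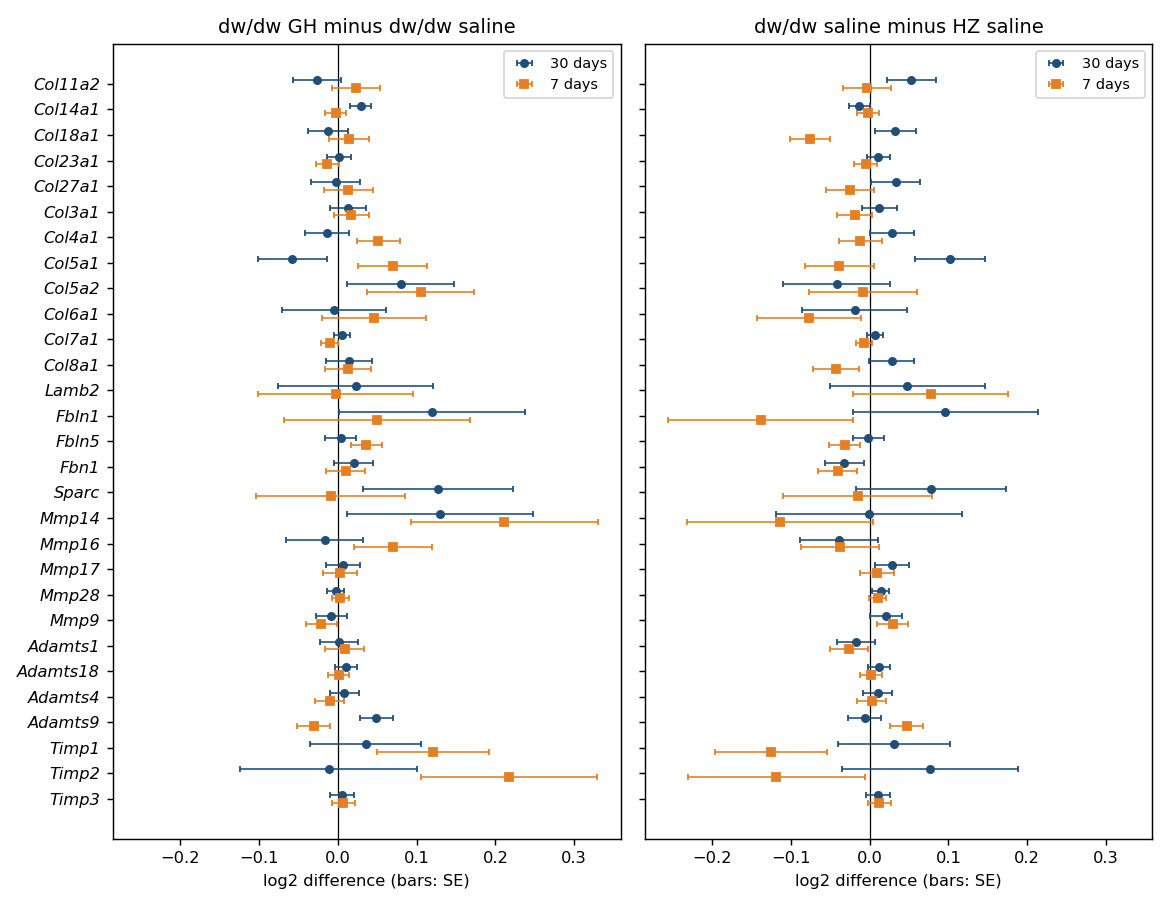
log2 differences (horizontal axes) of the 29 tested members for dw/dw GH minus dw/dw saline (left) and dw/dw saline minus HZ saline (right), at 30 days (circles) and 7 days (squares). Bars are SE, and 0 members passed the adjusted threshold in either panel.

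The meningeal markers also leaned one way in several comparisons. Of 15 measured markers, 12 were above 0 for GH against saline at 30 days and 12 at 7 days. For GH-treated dw/dw against HZ rats 13 were above 0 at 30 days and 0 at 7 days, and for saline dw/dw against HZ 13 at 30 days and 0 at 7 days. A meningeal index was formed for each array as the mean, over these 15 genes, of the log2 signal after each gene was centred on its 24-array mean. The genes were not scaled to equal spread, so those that vary most weigh most. Per unit of the index, within groups, the collagen gene Col1a2 rose by 4.56 and Ogn by 3.69, the largest of the 15. Aspn and Bgn rose by 0.021 and 0.033, the smallest. None of the 15 is a member, and 9 of them were detected on all 24 arrays. Islr, Slc13a4, Slc47a1, Aox3, Foxc1 and Foxd1 complete the list of 21 and were not measured here. At 30 days the index averaged 0.013 (range -0.12 to 0.19) in dw/dw GH, -0.045 (range -0.15 to 0.089) in dw/dw saline and -0.11 (range -0.14 to -0.063) in HZ saline rats. At 7 days it averaged 0.063 (range -0.043 to 0.20) in dw/dw GH, -0.050 (range -0.074 to 0.0066) in dw/dw saline and 0.13 (range -0.076 to 0.34) in HZ saline rats. With the index as a covariate, the members above 0 numbered 16, 18 and 19 of 29 at 30 days for GH against saline, saline dw/dw against HZ, and GH against HZ. At 7 days the same 3 comparisons gave 16, 16 and 19, and the averaged GH difference gave 19. The share of all tested probes above 0 in that fit is not given here, so these counts have no background beside them. Why they differ from the counts without the covariate was not tested. The number past the adjusted threshold stayed at 0 in all 10 comparisons with that covariate.

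Other marker lists also leaned one way in the GH comparisons. For GH against saline, 5 of 6 endothelial markers were above 0 at 30 days, 6 at 7 days and 6 averaged over both, with medians of 0.022, 0.080 and 0.046. Of 5 red blood cell markers 5 were above 0 at 30 days, 3 at 7 days and 4 averaged, with medians of 0.47, 0.58 and 0.52, and 3 had an unadjusted p under 0.05 each time. The red blood cell list, as a mean of centred log2 signals, ran -0.28 to -0.10 in dw/dw GH, -0.74 to -0.12 in dw/dw saline and -0.53 to -0.33 in HZ saline rats at 30 days. It ran 0.41 to 0.73 in dw/dw GH, 0.13 to 0.27 in dw/dw saline and 0.16 to 0.65 in HZ saline rats at 7 days. Oligodendrocyte markers above 0 for GH against saline numbered 10 of 11 at 30 days and 6 at 7 days, neuronal markers 10 and 3 of 12, and mural markers 3 and 6 of 7. For saline dw/dw against HZ rats, 1 endothelial and 2 red blood cell markers were above 0 at 30 days, and 0 and 0 at 7 days. For GH-treated dw/dw against HZ rats the endothelial count was 4 at 30 days and 4 at 7 days, and the red blood cell count 5 and 3. None of these markers passed the adjusted threshold, and their part in the members' differences was not tested.

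Among rats of one group, 4 members rose with the index, Fbln1, Mmp14, Lamb2 and Col18a1, and 0 fell. The slope is the change in log2 signal per log2 unit of the index, fitted beside the 6 group means. Of the 11472 tested probes that are not index genes, 61 (0.532%) had a positive slope and 2 (0.0174%) a negative one past the adjusted threshold. Called or not, the slope was above 0 in 19 of 29 members and in 5386 of those 11472 probes. Slopes were 1.19 (SE 0.20, limma adjusted p = 0.0045) for Fbln1, 1.15 (SE 0.21, limma adjusted p = 0.0091) for Mmp14, 0.96 (SE 0.18, limma adjusted p = 0.0091) for Lamb2 and 0.25 (SE 0.047, limma adjusted p = 0.0095) for Col18a1. The next smallest p-values belonged to Col3a1 at 0.19 (SE 0.046, limma adjusted p = 0.077), Col8a1 at 0.24 (SE 0.062, limma adjusted p = 0.11), Fbln5 at 0.13 (SE 0.048, limma adjusted p = 0.64) and Col14a1 at 0.086 (SE 0.034, limma adjusted p = 0.73). At the other end stood Mmp16 at 0.0026 (SE 0.14, limma adjusted p = 1), Fbn1 at -0.010 (SE 0.072, limma adjusted p = 1) and Adamts18 at 0.011 (SE 0.039, limma adjusted p = 1). The calls depended on the HZ rats at 7 days, the group in which the index spread most. Without HZ replicate 3 of that group 0 members were called, with slopes of 1.06 for Fbln1 and 1.04 for Mmp14, and without replicate 1 there were 2. Without replicate 1 the Mmp14 slope was 0.74.

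**Figure D4:**
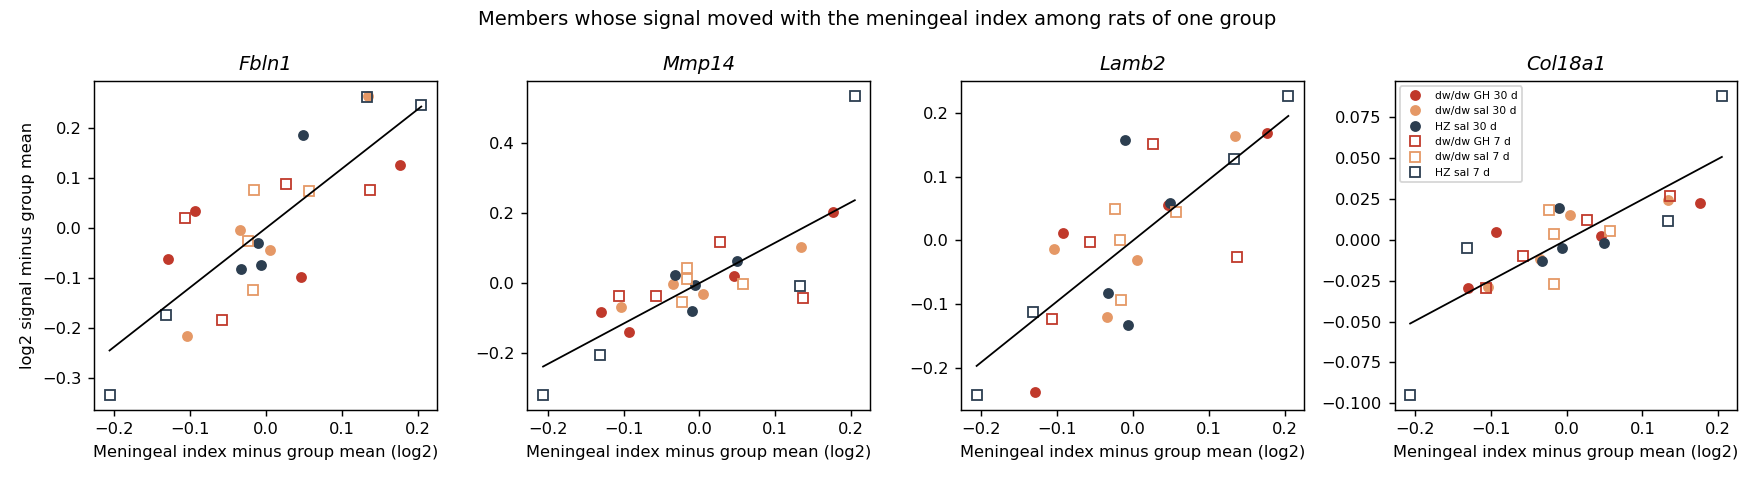
log2 signal minus group mean (vertical axes) against meningeal index minus group mean (horizontal axes) for the 4 members called for the slope, 1 point per rat. Lines are the fitted slopes, filled circles are 30-day rats and open squares 7-day rats, and the HZ 7-day rats (dark squares) reach both ends of the horizontal axis.

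Mmp14, a membrane-bound metalloproteinase that cuts fibrillar collagen and activates pro-Mmp2, had the largest difference between durations of the 29 tested members. Mmp14 had log2 signals of 6.58, 6.73, 6.63 and 6.92 in dw/dw GH, 6.58, 6.69, 6.55 and 6.52 in dw/dw saline, and 6.65, 6.61, 6.58 and 6.51 in HZ saline rats at 30 days. Mmp14 read 7.19, 7.04, 7.04 and 7.03 in dw/dw GH, 6.91, 6.88, 6.81 and 6.86 in dw/dw saline, and 7.51, 6.77, 6.66 and 6.97 in HZ saline rats at 7 days. The 30-day rats lay below the 7-day rats of the same treatment without overlap in all 3 treatments. For such overlaps of durations within a treatment, here and for the genes below, the share over all tested probes was not computed. Members that were not called also lay lower at 30 days without overlap, Sparc and Col7a1 in HZ and Col14a1 in dw/dw saline rats. Differences of 30 minus 7 days were -0.36 (SE 0.12) in dw/dw GH, -0.28 (SE 0.12) in dw/dw saline and -0.39 (SE 0.12) in HZ saline rats. The average of the 3 was -0.34 (SE 0.068, limma adjusted p = 0.0022). With the meningeal index as a covariate it was -0.23 and still passed. HZ replicate 1 at 7 days, which had the highest index of all arrays, also had the highest Mmp14 signal. All 4 dw/dw GH rats lay above all 4 dw/dw saline rats at 7 days. That difference was 0.21 (SE 0.12, 95% interval -0.036 to 0.46, limma adjusted p = 1), and over both durations it was 0.17 (SE 0.084, 95% interval -0.0040 to 0.35, limma adjusted p = 1), so neither passed the test.

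Mmp9, the gelatinase that cuts denatured and type IV collagen, was detected on all 24 arrays. Mmp9 had log2 signals of 6.28, 6.31, 6.32 and 6.27 in dw/dw GH, 6.28, 6.25, 6.35 and 6.32 in dw/dw saline, and 6.26, 6.29, 6.29 and 6.28 in HZ saline rats at 30 days. Mmp9 read 6.35, 6.36, 6.33 and 6.35 in dw/dw GH, 6.35, 6.37, 6.37 and 6.39 in dw/dw saline, and 6.35, 6.38, 6.29 and 6.35 in HZ saline rats at 7 days. The 30-day rats lay below the 7-day rats without overlap in dw/dw GH and in dw/dw saline rats, and HZ replicate 3 at 7 days fell within the range of the 30-day HZ rats. Mmp9 fell by 0.061 at 30 days relative to 7 days (SE 0.012, limma adjusted p = 0.0015). Averaged over durations, saline dw/dw rats differed from HZ rats by 0.025 (SE 0.014, limma adjusted p = 0.59). Without HZ replicate 3 at 7 days that was 0.016. Mmp28, the secreted protease epilysin, was detected on 5 arrays, with log2 signals of 6.06 to 6.11. Its saline dw/dw minus HZ difference was 0.014 (SE 0.011, limma adjusted p = 0.78) at 30 days and 0.012 (SE 0.0077, limma adjusted p = 0.64) averaged over durations. Without HZ replicate 4 at 7 days the averaged difference was 0.0076. Mmp16, another membrane-type enzyme, was detected on all arrays at 6.49 to 6.77 and was among the 3 members with the largest p for the index slope.

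**Figure D5:**
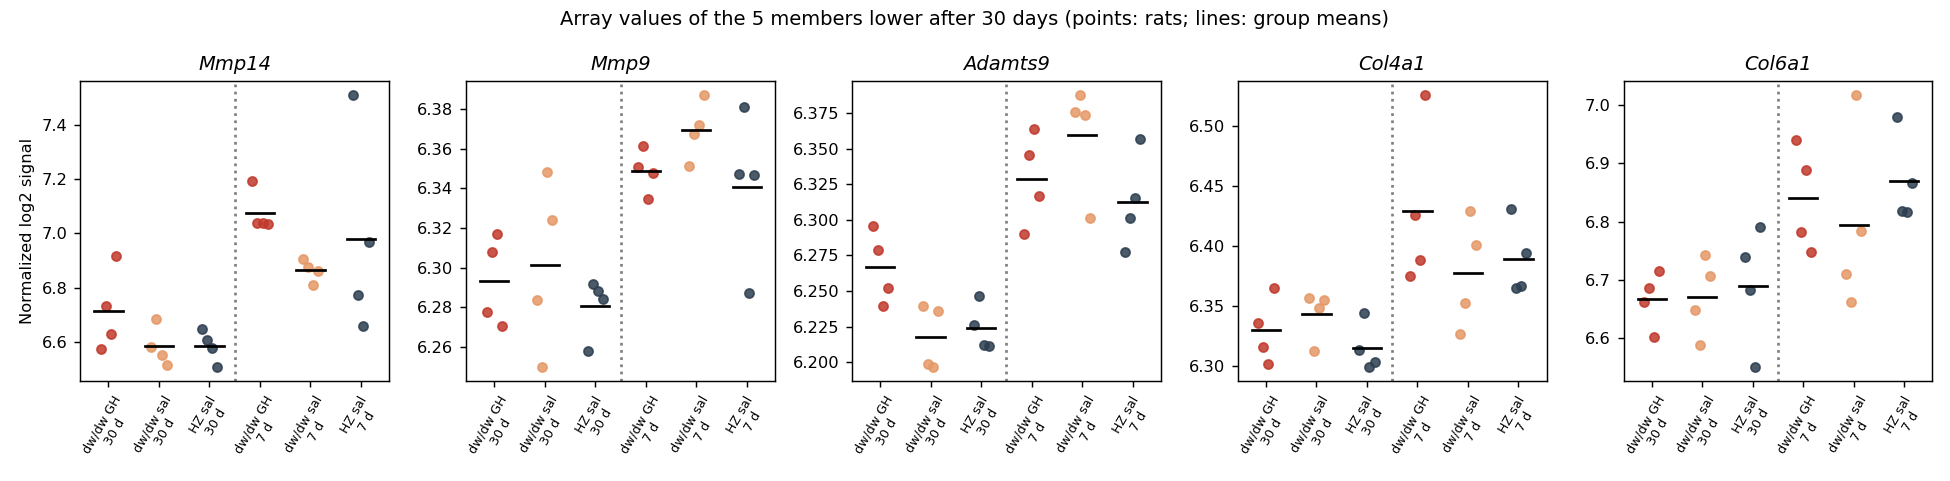
Normalized log2 signal (vertical axes, each scaled to its gene) of the 5 members that fell at 30 days, 1 point per rat and a line at each group mean. The 30-day groups stand left of the dotted line, and all 3 Mmp14 group means there (6.71, 6.58 and 6.59) lie below the lowest 7-day group mean (6.86).

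Adamts9, an enzyme that cleaves the proteoglycans aggrecan and versican, had the smallest p of the members between durations. The start region of the gene is printed because its signal fell. It spans 250 bases before to 50 after the transcript start (RefSeq, GRCr8, 5′ to 3′ on the gene's strand), and capitals mark a CCAAT box and the reverse complement of a GC box.
Adamts9, chr4:127019827-127020126, strand -: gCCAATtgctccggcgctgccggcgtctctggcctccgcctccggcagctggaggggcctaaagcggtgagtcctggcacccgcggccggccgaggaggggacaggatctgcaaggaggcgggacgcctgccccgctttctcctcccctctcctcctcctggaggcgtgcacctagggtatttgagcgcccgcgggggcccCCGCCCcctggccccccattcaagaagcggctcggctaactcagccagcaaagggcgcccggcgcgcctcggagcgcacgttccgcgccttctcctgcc
Adamts9 had log2 signals of 6.30, 6.28, 6.24 and 6.25 in dw/dw GH, 6.24, 6.20, 6.20 and 6.24 in dw/dw saline, and 6.23, 6.25, 6.21 and 6.21 in HZ saline rats at 30 days. Adamts9 read 6.29, 6.35, 6.36 and 6.32 in dw/dw GH, 6.38, 6.39, 6.37 and 6.30 in dw/dw saline, and 6.28, 6.30, 6.32 and 6.36 in HZ saline rats at 7 days. Durations did not overlap in dw/dw saline and in HZ rats, while in dw/dw GH rats replicate 1 at 30 days lay just above replicate 1 at 7 days. Adamts9 fell by 0.098 at 30 days relative to 7 days (SE 0.012, limma adjusted p = 3.8e-05). The duration difference was -0.062 (SE 0.021) in dw/dw GH, -0.14 (SE 0.021) in dw/dw saline and -0.089 (SE 0.021) in HZ rats. GH minus saline was 0.049 (SE 0.021, limma adjusted p = 1) at 30 days, and its change between durations was 0.080 (SE 0.030, 95% interval 0.017 to 0.14, limma adjusted p = 0.92). GH-treated dw/dw minus HZ was 0.043 (SE 0.021, limma adjusted p = 0.89) at 30 days. Saline dw/dw minus HZ was 0.047 (SE 0.021, limma adjusted p = 0.72) at 7 days and changed by -0.054 (SE 0.030, limma adjusted p = 0.995) between durations. None of these treatment differences passed the test. Adamts18, a secreted protease of the same family, was detected on all arrays within 6.14 to 6.20. Adamts1 and Adamts4, which also cleave aggrecan, were detected on 21 and 22 arrays, within 6.09 to 6.24 and 6.09 to 6.19.

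The inhibitors gave some of the wider differences in the GH comparisons, and none passed. Timp2, which inhibits metalloproteinases and also joins Mmp14 in activating pro-Mmp2, was detected on all arrays. Timp2 had log2 signals of 7.10, 7.58, 7.48 and 7.79 in dw/dw GH, 7.23, 7.60, 7.67 and 7.50 in dw/dw saline, and 7.39, 7.48, 7.31 and 7.51 in HZ saline rats at 30 days. Timp2 read 7.53, 7.37, 7.28 and 7.43 in dw/dw GH, 7.02, 7.16, 7.18 and 7.38 in dw/dw saline, and 7.32, 7.32, 7.29 and 7.29 in HZ saline rats at 7 days. At 7 days all 4 dw/dw GH and all 4 HZ rats lay above 3 of the 4 dw/dw saline rats, and saline replicate 4 stood within the GH range. GH minus saline at 7 days was 0.22 (SE 0.11, 95% interval -0.016 to 0.45, limma adjusted p = 1). With slide position as a covariate it was -0.023. Each treatment fills its own block of positions, so that covariate is fitted only on the order of rats within groups. It cannot separate position from treatment. Between durations, Timp2 was the member furthest above 0, at 0.17 (SE 0.065, limma adjusted p = 0.077), and it is named here after its values were seen. With the meningeal index as a covariate Timp2 rose past the threshold between durations. Timp1, a soluble inhibitor that is induced in injury, varied most in HZ rats at 7 days. Timp1 had log2 signals of 6.32, 6.40, 6.37 and 6.50 in dw/dw GH, 6.32, 6.41, 6.39 and 6.33 in dw/dw saline, and 6.32, 6.35, 6.29 and 6.37 in HZ saline rats at 30 days. Timp1 read 6.30, 6.40, 6.44 and 6.54 in dw/dw GH, 6.26, 6.43, 6.24 and 6.26 in dw/dw saline, and 6.70, 6.32, 6.40 and 6.27 in HZ saline rats at 7 days. HZ replicate 1 at 7 days was the highest of the 24 arrays. Saline dw/dw minus HZ at 7 days was -0.13 (SE 0.071, 95% interval -0.27 to 0.023, limma adjusted p = 0.82), and GH minus saline averaged over durations was 0.078 (SE 0.050, 95% interval -0.026 to 0.18, limma adjusted p = 1). Without HZ replicate 1 the saline dw/dw minus HZ difference was -0.033. Timp3, the inhibitor that binds to the matrix, was detected on 20 arrays, within 6.08 to 6.17.

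Among basement membrane genes, Col4a1, a chain of the type IV collagen network, fell at 30 days. Its start region (RefSeq, GRCr8, 5′ to 3′ on the gene's strand) carries, in capitals, 2 CCAAT boxes as the reverse complement ATTGG and GC boxes on both strands (CCGCCC and GGGCGG).
Col4a1, chr16:84885347-84885646, strand +: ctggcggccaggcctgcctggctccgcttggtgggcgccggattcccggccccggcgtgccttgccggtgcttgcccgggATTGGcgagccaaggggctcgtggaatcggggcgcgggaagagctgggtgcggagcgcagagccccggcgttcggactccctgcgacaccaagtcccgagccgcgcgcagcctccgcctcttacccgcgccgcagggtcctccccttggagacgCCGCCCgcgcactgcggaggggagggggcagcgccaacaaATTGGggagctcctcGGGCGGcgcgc
Col4a1 had log2 signals of 6.34, 6.32, 6.30 and 6.37 in dw/dw GH, 6.36, 6.31, 6.35 and 6.35 in dw/dw saline, and 6.31, 6.34, 6.30 and 6.30 in HZ saline rats at 30 days. Col4a1 read 6.38, 6.43, 6.39 and 6.53 in dw/dw GH, 6.33, 6.35, 6.43 and 6.40 in dw/dw saline, and 6.43, 6.37, 6.37 and 6.39 in HZ saline rats at 7 days. The durations did not overlap in dw/dw GH and HZ rats and overlapped in dw/dw saline rats. The average difference of 30 minus 7 days was -0.069 (SE 0.016, limma adjusted p = 0.0065). GH minus saline was 0.052 (SE 0.028, limma adjusted p = 1) at 7 days, with dw/dw GH replicate 4 the highest of all 24 arrays, and it changed by -0.065 (SE 0.039, limma adjusted p = 0.969) between durations. GH-treated dw/dw minus HZ was 0.040 (SE 0.028, limma adjusted p = 0.999) at 7 days. Without dw/dw GH replicate 4 at 7 days these were 0.019 for GH minus saline, -0.032 for its change and 0.0072 for GH-treated dw/dw minus HZ. Without dw/dw saline replicate 1 at 7 days GH minus saline was 0.034. Col18a1 had log2 signals of 6.15, 6.15, 6.11 and 6.17 in dw/dw GH, 6.14, 6.18, 6.17 and 6.13 in dw/dw saline, and 6.12, 6.11, 6.12 and 6.14 in HZ saline rats at 30 days. Col18a1 read 6.16, 6.12, 6.14 and 6.17 in dw/dw GH, 6.11, 6.14, 6.15 and 6.14 in dw/dw saline, and 6.30, 6.20, 6.11 and 6.22 in HZ saline rats at 7 days. Col18a1 encodes the basement membrane collagen whose end fragment is endostatin. HZ rats at 7 days held the 3 highest of the 24 signals and also one of the lowest. Saline dw/dw minus HZ was -0.076 (SE 0.026, limma adjusted p = 0.57) at 7 days, GH-treated dw/dw minus HZ was -0.062 (SE 0.026, limma adjusted p = 0.999), and the deficiency difference changed by 0.11 (SE 0.036, limma adjusted p = 0.995) between durations. Without HZ replicate 1 at 7 days the differences from HZ were -0.047 for saline and -0.033 for GH-treated dw/dw rats, and without replicate 3 that of GH-treated rats was -0.093. The index was lower in both dw/dw groups than in HZ rats at 7 days, and Col18a1 is one of the 4 members called for the slope. Without HZ replicate 1 or 3 at 7 days that slope was 0.20 or 0.19 and was not called. With the index as a covariate these Col18a1 differences did not pass the adjusted threshold either. Their sizes in that fit are not given here.

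Lamb2, the laminin beta 2 chain found in vessel basement membrane, was named for its slope on the index alone. Lamb2 had log2 signals of 7.12, 7.17, 6.87 and 7.28 in dw/dw GH, 6.97, 7.25, 7.06 and 7.07 in dw/dw saline, and 7.10, 6.96, 6.91 and 7.20 in HZ saline rats at 30 days. Lamb2 read 7.39, 7.11, 7.23 and 7.21 in dw/dw GH, 7.24, 7.14, 7.29 and 7.28 in dw/dw saline, and 7.39, 7.05, 6.92 and 7.29 in HZ saline rats at 7 days. The rat with the highest index of its group had the highest Lamb2 signal in 3 of the 6 groups, dw/dw GH and dw/dw saline at 30 days and HZ at 7 days. In dw/dw GH rats at 7 days replicate 4 had the highest index and the third highest Lamb2 signal. In dw/dw saline rats at 7 days replicate 3 had the lowest index and the highest Lamb2 signal, and in HZ rats at 30 days replicate 1 had the highest index and replicate 4 the highest Lamb2 signal. HZ replicate 3 at 7 days had the lowest index and the lowest Lamb2 signal of its group. The groups overlapped in every comparison within a duration.

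Of the other collagens, Col6a1, a chain of the beaded filaments that surround cells and basement membranes, fell at 30 days. Its start region (RefSeq, GRCr8, 5′ to 3′ on the gene's strand) holds 1 AP-1 motif, in capitals.
Col6a1, chr20:11905440-11905739, strand +: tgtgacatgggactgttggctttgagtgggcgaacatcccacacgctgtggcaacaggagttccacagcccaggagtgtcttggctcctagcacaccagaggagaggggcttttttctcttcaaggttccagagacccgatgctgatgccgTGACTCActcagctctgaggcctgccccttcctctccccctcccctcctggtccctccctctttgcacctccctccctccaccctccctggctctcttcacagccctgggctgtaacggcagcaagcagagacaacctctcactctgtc
Col6a1 had log2 signals of 6.66, 6.69, 6.60 and 6.71 in dw/dw GH, 6.65, 6.59, 6.74 and 6.71 in dw/dw saline, and 6.74, 6.68, 6.55 and 6.79 in HZ saline rats at 30 days. Col6a1 read 6.94, 6.78, 6.89 and 6.75 in dw/dw GH, 6.71, 6.66, 7.02 and 6.78 in dw/dw saline, and 6.98, 6.82, 6.82 and 6.87 in HZ saline rats at 7 days. The durations did not overlap in dw/dw GH and HZ rats, and in dw/dw saline rats replicates 1 and 2 at 7 days lay within the 30-day range. The average difference of 30 minus 7 days was -0.16 (SE 0.038, limma adjusted p = 0.0085). Type V collagen, a minor fibrillar collagen that sets fibril width, had 2 tested chains. Col5a1 had log2 signals of 6.40, 6.47, 6.39 and 6.46 in dw/dw GH, 6.42, 6.46, 6.59 and 6.48 in dw/dw saline, and 6.34, 6.45, 6.36 and 6.39 in HZ saline rats at 30 days. Col5a1 read 6.60, 6.46, 6.48 and 6.56 in dw/dw GH, 6.43, 6.40, 6.46 and 6.54 in dw/dw saline, and 6.60, 6.39, 6.50 and 6.49 in HZ saline rats at 7 days. At 30 days dw/dw saline replicate 3 stood above all other 30-day rats. Saline dw/dw minus HZ was 0.10 (SE 0.044, 95% interval 0.0095 to 0.19, limma adjusted p = 0.67) at 30 days. Without dw/dw saline replicate 3 it was 0.067. This difference changed by 0.14 (SE 0.063, limma adjusted p = 0.995) between durations, and the GH difference by -0.13 (SE 0.063, limma adjusted p = 0.95).

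Col5a2 encodes the other tested type V chain, and its 24 signals lay within 6.62 to 7.04. GH minus saline averaged over durations was 0.093 (SE 0.048, 95% interval -0.0080 to 0.19, limma adjusted p = 1), with means of 6.79 ± 0.12 in dw/dw GH and 6.71 ± 0.036 in dw/dw saline rats in the 30-day groups (SD, n = 4). In the 7-day groups the means were 6.91 ± 0.094 in dw/dw GH and 6.80 ± 0.075 in dw/dw saline rats. Col11a2, a chain of fibrillar type XI collagen, read 6.34, 6.42, 6.42 and 6.43 in dw/dw saline, against 6.31, 6.36, 6.35 and 6.38 in HZ rats at 30 days. The ranges overlapped, and the difference was 0.053 (SE 0.031, limma adjusted p = 0.72). Col14a1, a collagen that coats fibrils, read 6.12, 6.11, 6.08 and 6.12 in dw/dw GH, against 6.09, 6.07, 6.08 and 6.08 in dw/dw saline rats at 30 days. It was detected on 7 arrays only, and the difference was 0.029 (SE 0.014, limma adjusted p = 1). Col7a1, the collagen of anchoring fibrils in skin, was detected on 9 arrays within 6.07 to 6.12, and GH-treated dw/dw minus HZ was -0.018 (SE 0.010, limma adjusted p = 0.999) at 7 days. Col3a1, a fibrillar collagen of vessel walls and meninges, and Col8a1, a short-chain collagen of vessels, were each detected on 5 arrays, within 6.03 to 6.16 and 6.02 to 6.21. The highest signal of both was that of HZ replicate 4 at 7 days. Col23a1 and Col27a1, detected on 5 and 24 arrays, and Mmp17, detected on 24, were neither called nor among the 3 smallest p-values in any comparison.

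Of the glycoproteins, Fbln1, which binds fibronectin and laminin, had one of the widest spreads between rats of a group. Fbln1 had log2 signals of 8.71, 8.58, 8.61 and 8.80 in dw/dw GH, 8.55, 8.82, 8.51 and 8.34 in dw/dw saline, and 8.65, 8.38, 8.38 and 8.43 in HZ saline rats at 30 days. Fbln1 read 8.84, 8.77, 8.57 and 8.83 in dw/dw GH, 8.58, 8.78, 8.67 and 8.77 in dw/dw saline, and 9.08, 8.66, 8.50 and 9.10 in HZ saline rats at 7 days. HZ replicates 1 and 4 at 7 days, the rats with the 2 highest values of the meningeal index, were also the 2 highest for Fbln1. GH-treated dw/dw minus HZ at 30 days was 0.22 (SE 0.12, 95% interval -0.031 to 0.46, limma adjusted p = 0.91). Its residual SD of 0.17 stood beside 0.17 for Mmp14, while the members' median was 0.036 and that of all tested probes 0.058. Differences are compressed for the dimmest probes, so SDs of dim and bright probes are not like for like.

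Sparc encodes a secreted protein that binds collagen. Sparc had log2 signals of 10.005, 10.28, 10.24 and 10.41 in dw/dw GH, 10.06, 10.09, 10.25 and 10.01 in dw/dw saline, and 10.06, 10.06, 9.93 and 10.06 in HZ saline rats at 30 days. Sparc read 10.47, 10.09, 10.18 and 10.13 in dw/dw GH, 10.12, 10.11, 10.33 and 10.35 in dw/dw saline, and 10.45, 10.28, 10.15 and 10.08 in HZ saline rats at 7 days. At 30 days 3 of 4 dw/dw GH rats lay above all 4 HZ rats, and dw/dw GH replicate 1 lay within the HZ range. GH-treated dw/dw minus HZ was 0.21 (SE 0.095, 95% interval 0.0070 to 0.40, limma adjusted p = 0.89) at 30 days, and GH minus saline was 0.13 (SE 0.095, 95% interval -0.071 to 0.33, limma adjusted p = 1). Without dw/dw GH replicate 4 GH minus saline was 0.069, and without replicate 1 it was 0.20. At 7 days the 3 group means lay between 10.22 and 10.24. Fbln5, needed for elastic fibre assembly, was detected on 13 arrays, and GH minus saline was 0.036 (SE 0.020, limma adjusted p = 1) at 7 days. It read 6.10, 6.13, 6.07 and 6.15 in dw/dw GH, against 6.09, 6.06, 6.06 and 6.10 in dw/dw saline rats at that time, with overlapping ranges. Without dw/dw GH replicate 4 the difference was 0.023. Fbn1, the main protein of microfibrils, was detected on all arrays within 6.17 to 6.33. Saline dw/dw minus HZ averaged over durations was -0.037 (SE 0.018, 95% interval -0.073 to 0.00037, limma adjusted p = 0.51) for Fbn1. Its means were 6.20 ± 0.033 in dw/dw saline and 6.24 ± 0.030 in HZ rats at 30 days, and 6.24 ± 0.056 in dw/dw saline and 6.28 ± 0.036 in HZ rats at 7 days (SD, n = 4).

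The sizes of the duration differences depend on how background is treated. Without background correction the differences were -0.42 for Mmp14, -0.15 for Mmp9, -0.26 for Adamts9, -0.15 for Col4a1 and -0.20 for Col6a1. With the authors' series matrix values they were -0.70 for Mmp14, -0.40 for Mmp9, -0.66 for Adamts9, -0.38 for Col4a1 and -0.39 for Col6a1. There the median of all probes was -0.14, and 4968 of 5224 calls were lower, against 908 of 1808 here. With median scaling in place of quantile normalization Mmp14, Mmp9 and Adamts9 passed, and Col4a1 and Col6a1 did not (adjusted p = 0.094 and 0.058).

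Start regions were found in the RefSeq table for 21 of the 29 tested members. The motifs were searched on both strands, and the shares are those of 27457 regions of the same 300 bases. These regions were not limited to genes detected on the arrays, as the 21 members were. Membership and detection therefore cannot be told apart in the shares. The GC box GGGCGG was held by 15 of the 21 members, or 71.4%, against 34.9% of all. CCAAT was held by 5, or 23.8%, against 37.7%, and TATAAA by 1, or 4.76%, against 14.3%. The AP-1 motif TGANTCA was held by Col6a1 alone, 4.76% against 7.33%. No motif overlapped another in these 21 regions. The members' regions had a median GC content of 62.7%, against 52.3% for all regions, and the GC box is itself made of G and C. These letters describe the sequence and were not tied to any difference.

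The partners of these proteins, from 6 lists of other matrix genes, gave 0 genes past the threshold in the 10 treatment comparisons (limma). At an unadjusted p under 0.05, no list had more than 2 genes in one direction. Between durations some passed, in both directions. Of 13 measured proteoglycan and net genes 1 rose at 30 days and 2 fell, and Spock1, a brain proteoglycan, had the smallest p at 0.25 (SE 0.045, adjusted p = 0.00095). Of 5 basement membrane partners 1 rose and 1 fell, with Smoc2 at 0.040 (SE 0.012). Of 11 matrix receptors 1 fell, the integrin chain gene Itgb1, by 0.21 on the log2 scale (adjusted p = 0.0095). Of 10 collagen processing genes 1 rose and 1 fell, and the smallest p was that of Plod1, a lysyl hydroxylase gene, at -0.15. Of 11 genes of plasminogen and protease control 1 rose, the brain serpin gene Serpini1, at 0.16. Of 14 TGF-beta genes 0 rose and 2 fell, with Ltbp4, which binds latent TGF-beta, at -0.19. The 6 list medians lay between -0.14 and -0.0096, beside -0.018 for the members and -0.0014 for all tested probes.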

How the data were processed

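The submitters deposited 1 Illumina array for each of the 24 hippocampi. Trizol extraction, DNase treatment, biotin labelling of cRNA and detection with Cy3-streptavidin are described in the labels' protocols, and the submitters' processing notes name GenomeStudio 2010.2. The deposited scanner table gives, per the file headers, an average signal (an intensity) and a detection p-value for each probe and array. Array medians of that intensity ran from 46 to 56.7. The authors' deposited series matrix holds another intensity for each array, and how it was normalized is not given in the sources used here. Its columns kept the scanner's rank order, were not logged, had medians near 9.77 on one slide and 8.61 on the other, and were used only for an alternative, after setting values below 1 to 1 and taking log2. Any centring between its slides is unknown.

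From the scanner signals, log2 values were computed with limma 3.58.1 in R 4.3.3 (jsonlite 2.0.0), by normexp with detection p-values, an offset of 16 and quantile normalization. Probes with a detection p under 0.05 on 4 or more of the arrays were kept for testing, 11487 of 22226. Arrays give no read depth, and their number sets the precision. Gene symbols came from the platform annotation: 13192 probes had 1, 0 had several, and 9034 are unnamed here. RefSeq gene IDs of GRCr8 matched 13151 of these and changed 0 symbols.

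lmFit and eBayes were run on the 6 group means of all arrays (18 residual and 1.55 prior degrees of freedom). Tests were two-sided, with Benjamini-Hochberg adjustment over all tested probes and a threshold of 0.05. The procedure was tested on simulated data with normal noise and differences or slopes of 1 log2 unit. Those differences are larger than any member's difference here, so recovery at the members' sizes was not tested. Values and differences are printed for members that passed (up to 8) or had one of the 3 smallest p-values in a comparison, and for the 8 smallest and 3 largest p-values of the slope. Levels alone are printed for a list of well known members and for members with an array far from its group, and 1 gene is named from each other matrix list. Members and lists were chosen with earlier results of these data known. Alternatives were median scaling, no background correction, the series matrix values, no detection filter or one of 12 arrays, replicate number, slide position, share of probes detected or meningeal index in the model, each slide alone, and each array left out in turn.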

Additional observations from a re-analysis of the deposited data

Results flagged for a closer look

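In 9 of 138 member groups (6.52%) 1 rat stood far from the other 3 of its group by Dixon's criterion, among the 23 members with printed differences or slopes. Chance gives about 1 in 20, and no cause was tested. Mmp14 read 7.19 in replicate 1 of the dw/dw GH rats at 7 days, above the others at 7.03 to 7.04. Adamts9 read 6.30 in replicate 4 of the dw/dw saline rats at 7 days, below the others at 6.37 to 6.39. In the same group Timp1 read 6.43 in replicate 2, above 6.24 to 6.26. Its replicate 3 was high for Fbn1, at 6.33 against 6.21 to 6.22, and for Col11a2, at 6.45 against 6.36 to 6.37. Sparc read 9.93 in replicate 3 of the HZ saline rats at 30 days, with the others all at 10.06 when rounded. In that group Fbln5 read 6.13 in replicate 1, with the others all at 6.10 when rounded. Among dw/dw GH rats at 30 days Col3a1 read 6.11 in replicate 4, above 6.05 to 6.06, and Mmp28 read 6.07 in replicate 2, with the others all at 6.10 when rounded.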

How the results depend on the processing

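The count of 0 members past the threshold held in all 10 treatment comparisons under all alternatives run, each array left out in turn included. Between durations the 5 members that fell became 3 with median scaling, 17 with the series matrix values and 8 without the detection filter. In that last setting 5 of the 8 were lower, and Col17a1, Mmp12 and Mmp3, detected on 0 arrays, were added. The other alternatives gave 5 to 7 members past the threshold in either direction, and leaving out single arrays 5 to 7, with no member of the 5 changing sign. With the share of probes detected as a covariate 6 of 7 were lower, and with the meningeal index 5 of 6. The series matrix shift was lower over all probes, as given above, and the cause was not tested.

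The 4 members called for the index slope became 2 (Fbln1 and Mmp14) with the series matrix values and 2, the same genes, with the replicate number as a block (replicate block). The labels do not say whether replicate numbers pair the rats. Deviations from the group means of same-numbered rats of different groups correlated with a median of 0.0323 (-0.406 to 0.494). For rats with different numbers the median was -0.00872 (-0.507 to 0.556). These pairs were pooled over both slides, so pairing within a slide was not tested. The replicate block left the 0 counts at 0 and gave 6 members between durations. Leaving out single arrays gave 0 to 4 called slopes. Without background correction Col3a1 and Col8a1 also passed (adjusted p = 0.027 and 0.028), and the Col18a1 slope was 0.60. Slopes that did not pass changed sign: Fbn1 0.036 with median scaling, and Mmp16 -0.044 with the replicate block and -0.017 with position. Without single arrays Mmp16 ran -0.10 to 0.14, Fbn1 -0.044 to 0.052 and Adamts18 -0.016 to 0.030. With position as a covariate, which cannot be separated from treatment, the Timp2 GH difference at 7 days was -0.023. The cause of these changes was not tested.

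With 4 rats a group, and signals near background for many members, treatment differences of the sizes printed could not be told from the spread between rats. Slide, age and length of treatment cannot be told apart.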
